A study of Homo sapiens with 40 samples.

Results

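The genes examined encode the histone H3 lysine 9 (H3K9) methyltransferases other than SETDB1, namely SUV39H1, SUV39H2, EHMT1, EHMT2 and SETDB2, and the HP1 proteins CBX1 (HP1 beta), CBX3 (HP1 gamma) and CBX5 (HP1 alpha). They were taken by symbol, from the rows of the deposited count table whose Ensembl ID, without its version, pairs with that symbol. All 8 were found among 62486 rows, and all 8 were among the 17767 genes that passed the filter on low counts. RNA-seq compared control A549 cells (a cell line established from a human lung adenocarcinoma) with A549 cells whose SETDB1 gene was disrupted by CRISPR/Cas9 (knockout, KO), with 3 libraries per genotype. The guide and Cas9 were delivered from a plasmid. Whether the KO line is 1 clone, how the control line was handled and whether libraries came from separate cultures are not given in the sources used here, so p-values measure only the spread between these libraries, which may be technical. In the same series, the single deposited list of H3K9me3 peaks per genotype covered 344.1 Mb in control and 623.5 Mb in KO, a value with no replicate. The KO list held fewer peaks, 53949 against 102976 in control. The question asked of these genes was whether the RNA of other H3K9 writers, or of HP1 readers, differs where the mark covers more of the genome.

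Methylation of H3K9 marks repressed chromatin. SUV39H1 and SUV39H2 place H3K9me3 at pericentromeric and other constitutive heterochromatin, EHMT1 (GLP) and EHMT2 (G9a) work as a heterodimer that places H3K9me1 and H3K9me2 in euchromatin, and SETDB1 places H3K9me3 at retroelements and zinc finger genes. HP1 proteins bind methylated H3K9 through their chromodomain and recruit further writers through their chromoshadow domain, so that readers and writers sustain each other.

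The libraries held 18065062 to 48364919 counts, of which a mitochondrial ribosomal RNA, MT-RNR2, made up 18.7% to 21.5%. The 6 epithelial markers summed to 4460 to 4883 CPM (counts relative to library size, scaled by TMM) in control libraries. In KO libraries they summed to 10820 to 11620 CPM. All 6 rose, where 32.8% of all genes tested did. KRT8, KRT18 and KRT7, which held most of this sum, lie on chromosome 12, where the median shift was 0.37 in log2. They rose by 1.54, 1.73 and 0.10. KRT19, EPCAM and CDH1, on other chromosomes, rose by 2.49, 1.41 and 0.95. The part of the chromosome 12 shift in the higher sum was not tested. Of 6 genes known to be abundant in A549, 2 rose and 4 fell, AKR1C1, AKR1C2 and AKR1B10 the most (by 1.54, 1.12 and 0.87 in log2), and their sum was 17820 to 18340 CPM in control and 16000 to 16270 CPM in KO. Of 11 measured markers of immune, endothelial and fibroblast cells, CD14, CDH5 and COL1A1 passed the filter, and CDH5 rose from 0.29 ± 0.083 to 4.53 ± 0.67 CPM (SD, n = 3). CD3E, COL1A2 and DCN had 0 counts in all 6 libraries. The targeted transcript was lower in the KO libraries: SETDB1 was at 37.5, 39.6 and 38.7 CPM in control and at 23.4, 21.2 and 21.1 CPM in KO, or 56.8% of control. Of all genes tested with edgeR's quasi-likelihood test, 62.8% had a Benjamini-Hochberg adjusted p under 0.05, 32.8% higher and 30% lower in KO, and 14.7% passed it with a change of at least 2-fold.

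Most of the 8 genes changed, by less than 2-fold, and not in 1 direction. CBX5 and EHMT1 rose, while CBX3, SUV39H2, SUV39H1, EHMT2 and CBX1 fell. SETDB2 did not pass the test. The fold changes ranged from 0.73 for CBX3 to 1.37 for CBX5. Thus 7 of 8 genes passed, against 62.8% of all genes tested, 5 of 8 were lower, against 30%, and 2 of 8 were higher, against 32.8%. None of the 8 changed at least 2-fold, against 14.7% of all genes. In 6 of 8 genes the control and KO ranges of CPM were apart, against 65.8% of all genes. In 4 of them the KO range lay below, against 31.7%, and in 2 above, against 34.1%. The median log2 fold change of the 8 genes was -0.17, against 0.004 over all genes tested. Changes of 0.14 to 0.46 in log2 size are thus common in these libraries: CBX3, with the largest, changed more than 61.3% of tested genes, and CBX1, with the smallest past the threshold, more than 22.9%.

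**Figure D1:**
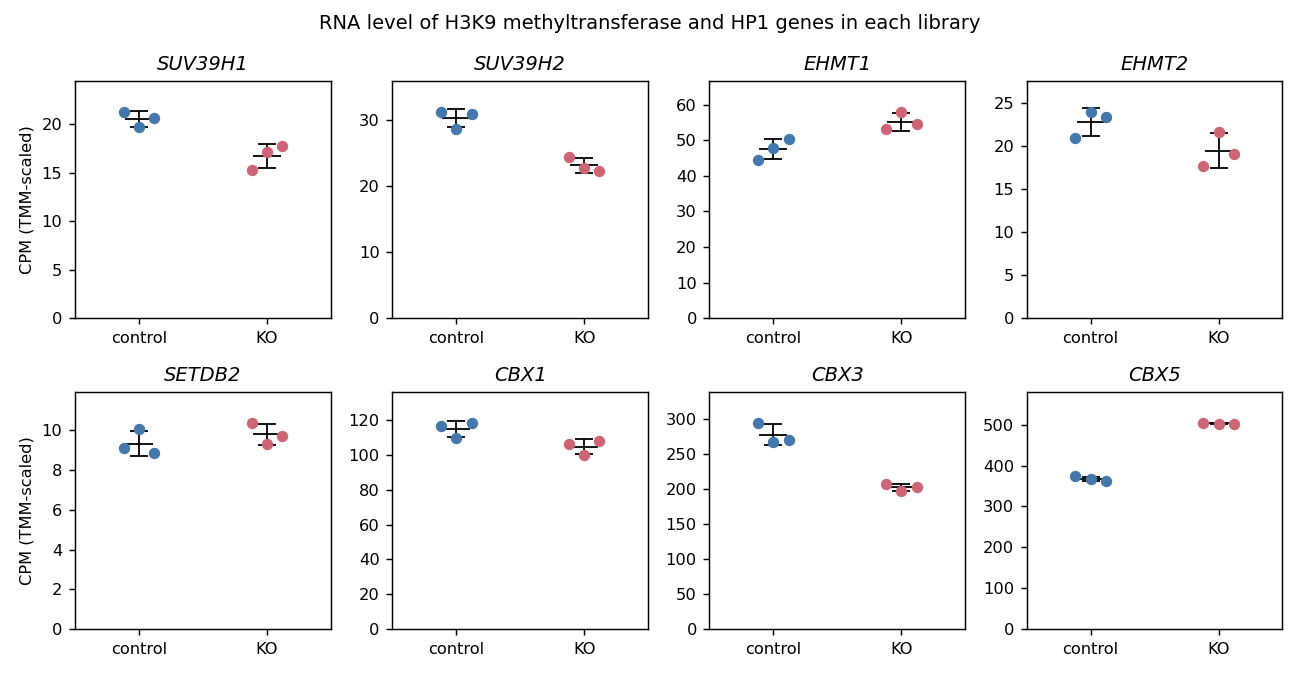
RNA level of the 8 genes in each library, in CPM on axes that start at 0. Points are libraries, horizontal marks are means and bars are 1 SD (n = 3 per genotype). The genotypes are apart for 6 genes, with CBX5 at 362 to 373 CPM in control and at 503 to 505 CPM in KO, and overlap for EHMT2 and SETDB2.

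Both SUV39H genes fell. SUV39H1 (ENSG00000101945, chromosome X) was at 21.2, 19.7 and 20.6 CPM in control libraries and at 15.3, 17.1 and 17.7 CPM in KO libraries. The highest KO library lay below the lowest control library, and the KO mean was 81.4% of the control mean. Its log2 fold change was -0.30 (SE 0.070, 95% interval -0.44 to -0.15, edgeR adjusted p 0.000613). SUV39H2 (ENSG00000152455, chromosome 10) was at 31.2, 28.7 and 30.8 CPM in control and at 24.4, 22.6 and 22.3 CPM in KO, again with no overlap. The KO mean was 76.5% of control, and the log2 fold change was -0.39 (SE 0.062, interval -0.52 to -0.27, edgeR adjusted p 3.03e-06). The ratio of SUV39H1 to SUV39H2 within a library, which no scaling of libraries can alter, had a mean log2 of -0.56 in control and -0.47 in KO. These ranges overlapped (exact permutation test, p = 0.4), so a difference in how far the paralogs fell was not detectable with 3 libraries a genotype. The gene DCLRE1C, which encodes the nuclease Artemis, overlaps SUV39H2 in RefSeq and also fell, by 0.24 on the log2 scale (SE 0.061, edgeR adjusted p 0.00139). The strand setting of the counting is not given in the sources used here, so reads that the overlapping genes share cannot be assigned.

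The partners of the G9a/GLP heterodimer went in opposite directions. EHMT1 (ENSG00000181090, chromosome 9) was at 44.5, 47.9 and 50.3 CPM in control and at 53.2, 58.0 and 54.5 CPM in KO, with every KO library above every control library. The KO mean was 116.2% of control, and the log2 difference was 0.22 (SE 0.054, interval 0.11 to 0.33, edgeR adjusted p 0.000988). EHMT2 (ENSG00000204371, chromosome 6) was at 20.9, 24.0 and 23.4 CPM in control and at 17.7, 21.7 and 19.1 CPM in KO. KO replicate 2 lay above control replicate 1, so the genotypes overlapped. Its log2 fold change was -0.20 (SE 0.075, interval -0.36 to -0.049, edgeR adjusted p 0.021), and that call was lost under 6 of 15 alternatives. Without control replicate 2 or 3, or without KO replicate 1 or 3, it was -0.17, -0.18, -0.14 and -0.19, with adjusted p of 0.0862, 0.0801, 0.129 and 0.0758. The log2 ratio of EHMT1 to EHMT2 was 1.09, 0.998 and 1.10 in control libraries and 1.59, 1.42 and 1.51 in KO libraries. The mean difference was 0.44 with no overlap (exact permutation test, two-sided p = 0.1, adjusted p = 0.12 over 6 ratios). A design of 3 against 3 cannot give a p below 0.1.

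SETDB2 (ENSG00000136169, chromosome 13), the closest relative of SETDB1 among these genes, had the fewest reads, with 182 to 460 counts per library. It was at 9.09, 10.0 and 8.86 CPM in control and at 10.4, 9.33 and 9.71 CPM in KO, and the genotypes overlapped. The log2 fold change of 0.071 had an interval of -0.11 to 0.25, a fold of 0.93 to 1.19 (edgeR adjusted p 0.497), and it did not pass under any of 15 alternatives, whose adjusted p ran from 0.311 to 0.813. The interval thus leaves room for a rise of up to 1.19-fold. The log2 ratio of SETDB2 to SETDB1 went from -2.05 ± 0.075 to -1.16 ± 0.037 (SD, n = 3, exact permutation p = 0.1), without overlap. In RefSeq, SETDB2 overlaps the read-through gene SETDB2-PHF11, and PHF11 itself rose from 6.67 ± 0.17 to 8.39 ± 0.26 CPM (edgeR adjusted p 0.00339).

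**Figure D2:**
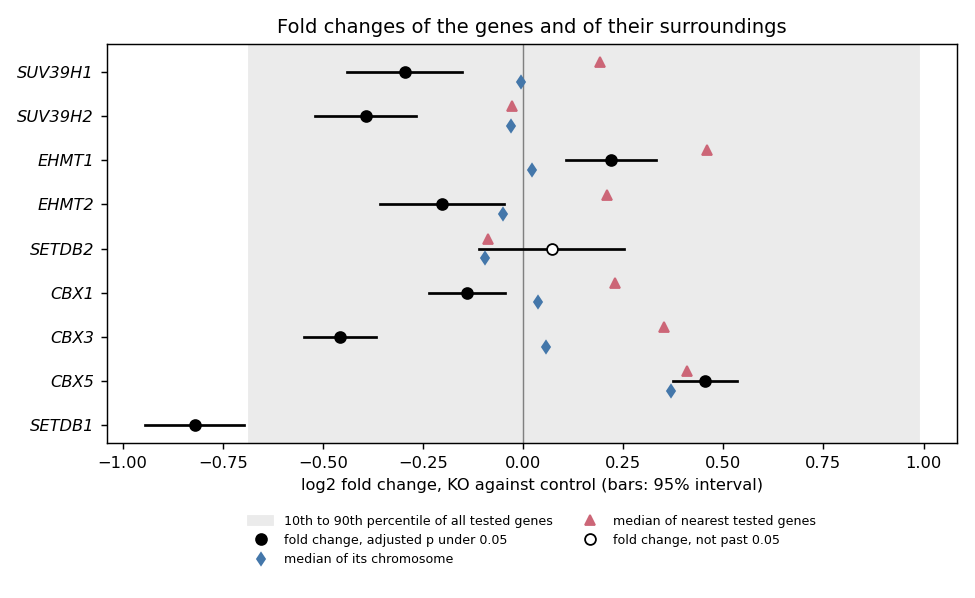
Log2 fold change of each gene, KO against control, with its 95% interval. Diamonds give the median of all tested genes of the same chromosome, triangles the median of the nearest tested genes, and the grey band the range from -0.68 to 0.99 that holds the middle 80% of tested genes. CBX5 lies beside the median of chromosome 12, while CBX3, CBX1, SUV39H1, SUV39H2 and EHMT2 lie below the medians of their surroundings.

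CBX3 and CBX5 changed most of the 8 genes, in opposite directions, and CBX1 fell slightly. CBX3 (ENSG00000122565, chromosome 7), whose protein is found in euchromatin and gene bodies as well as heterochromatin, was at 294, 267 and 270.2 CPM in control and at 207, 197 and 202 CPM in KO. All KO libraries lay below all control libraries, at 72.9% of the control mean. Its log2 fold change was -0.46 (SE 0.044, interval -0.55 to -0.37, edgeR adjusted p 4.79e-10). CBX5 (ENSG00000094916, chromosome 12), the HP1 form most concentrated in heterochromatin, was at 373, 367 and 362 CPM in control and at 505, 503 and 503 CPM in KO. The KO libraries agree within 1.27 CPM (SD) and all lay above control, at 137.1% of the control mean. The log2 fold change was 0.45 (SE 0.039, interval 0.37 to 0.53, edgeR adjusted p 5.18e-11). CBX1 (ENSG00000108468, chromosome 17) was at 116.9, 109.9 and 118.7 CPM in control and at 106.4, 100.1 and 108.1 CPM in KO. The genotypes were just apart, and the log2 difference was -0.14 (SE 0.046, interval -0.23 to -0.045, edgeR adjusted p 0.0101). This call was lost without control replicate 3 (-0.12, adjusted p 0.07), without KO replicate 2 (-0.10, adjusted p 0.0889) and with no filter on low counts (-0.10, adjusted p 0.105). Over all 15 alternatives its adjusted p ranged from 0.000489 to 0.105.

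The ratios between HP1 transcripts differed between the genotypes. The log2 ratio of CBX3 to CBX5 was -0.34, -0.46 and -0.42 in control libraries and -1.29, -1.36 and -1.32 in KO libraries. The mean fell by 0.91, against an SD of 0.060 between control libraries and 0.033 between KO libraries, and the ranges were apart. The log2 ratio of CBX1 to CBX5 fell by 0.59, from -1.68 ± 0.065 to -2.27 ± 0.057 (SD, n = 3), and that of CBX1 to CBX3 rose by 0.32, from -1.27 ± 0.073 to -0.95 ± 0.039. None of these ranges overlapped, and the exact permutation test gave the smallest p it allows, 0.1, for each (adjusted p = 0.12 over 6 ratios). The ratios are of read counts and were not corrected for transcript length, so they compare genotypes and not the abundance of HP1 forms. CBX5, the denominator in the ratios of CBX3 and CBX1 to it, lies on chromosome 12. The 854 tested genes of that chromosome had a median log2 fold change of 0.37. The part of this chromosome-wide shift in those ratios was not tested.

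**Figure D3:**
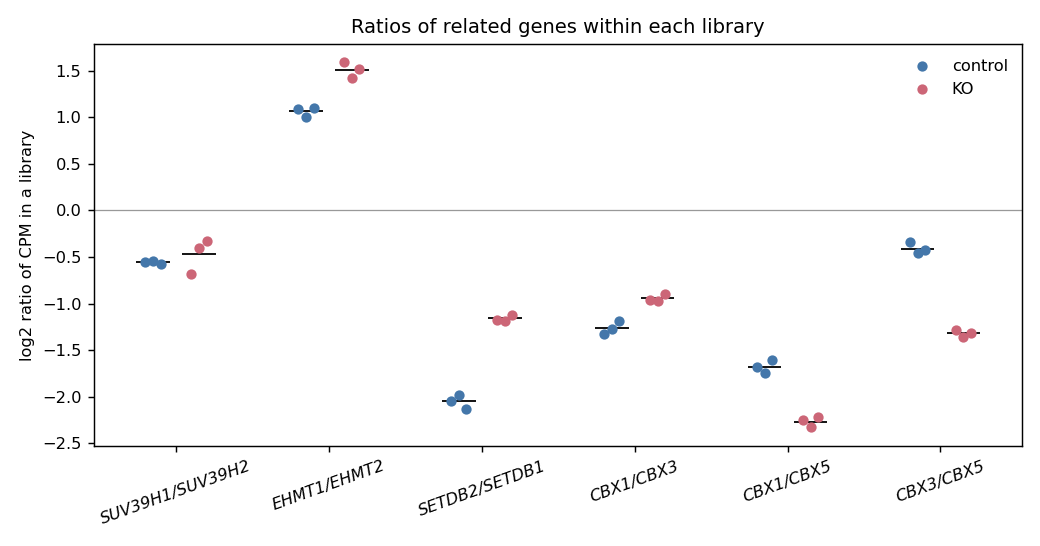
Log2 ratio of CPM of 2 related genes in each library, with lines at the means (n = 3 per genotype). The ratio of CBX3 to CBX5 sits between -0.46 and -0.34 in control and between -1.36 and -1.29 in KO. The genotypes overlap only for SUV39H1 to SUV39H2.

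Promoter sequences of the HP1 genes that moved apart, and of SUV39H2, are given so that the starts under comparison can be read. They are the 250 bases before the start in RefSeq on GRCh38.p14, a later build than the hg19 of the study's files, and all 8 genes matched that table, with 11 windows in all. For CBX5 the window of its outermost start is shown. Capitals mark letters searched for on both strands and found: the E2F letters TTTGGCGC in CBX3, which run 4 bases past the start, and the NF-Y letters CCAAT, read on the opposite strand as ATTGG, in CBX5. No searched letters were found before the start in SUV39H2.
CBX3, chr7:26201193-26201446, plus strand: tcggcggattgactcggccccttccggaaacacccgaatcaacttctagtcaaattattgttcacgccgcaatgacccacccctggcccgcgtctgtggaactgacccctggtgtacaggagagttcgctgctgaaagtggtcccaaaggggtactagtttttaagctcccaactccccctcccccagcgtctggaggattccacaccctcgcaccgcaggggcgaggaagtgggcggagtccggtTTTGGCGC
CBX5, chr12:54280123-54280372, minus strand: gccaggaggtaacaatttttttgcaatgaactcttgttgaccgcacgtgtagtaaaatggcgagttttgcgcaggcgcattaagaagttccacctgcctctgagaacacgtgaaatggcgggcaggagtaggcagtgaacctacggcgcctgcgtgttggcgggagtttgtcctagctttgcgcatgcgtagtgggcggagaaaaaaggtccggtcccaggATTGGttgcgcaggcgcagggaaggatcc
SUV39H2, chr10:14878616-14878865, plus strand: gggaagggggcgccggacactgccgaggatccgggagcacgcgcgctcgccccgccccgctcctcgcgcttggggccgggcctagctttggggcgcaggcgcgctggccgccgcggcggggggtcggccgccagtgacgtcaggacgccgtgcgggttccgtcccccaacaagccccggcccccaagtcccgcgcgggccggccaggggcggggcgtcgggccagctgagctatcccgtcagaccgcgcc
The E2F search used TTTCGCGC, TTTCCCGC and TTTGGCGC, and 2.74% of 35116 windows of 300 bases held at least 1 of them. Among the 8 genes only CBX3 did. The cell cycle homology letters TTTGAA or TTCGAA were found in 16.4% of all windows and, of these genes, in SUV39H2, 3 bases after its start. CCAAT was found in 34.6% of all windows and in SUV39H1, SETDB2 and CBX5. A match of letters is a description and not a binding site. The sequences shown are each part of such a window of 300 bases. Over the full window, GC content was 60.0% for CBX3, 57.3% for CBX5 and 76.3% for SUV39H2. The median over all windows was 58.7%.

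Several of these genes start head to head with another gene, and the RNA of tested partners can be set beside theirs. C2, which starts 85 bases from EHMT2 on the opposite strand, was not among the genes tested. HNRNPA2B1, which encodes an RNA-binding protein, starts 697 bases from CBX3 on the opposite strand. It also fell, from 393 ± 7.91 to 326 ± 26.0 CPM (SD, n = 3), or -0.27 in log2 (SE 0.047) with an edgeR adjusted p of 1.68e-05. ARRDC1-AS1, whose starts lie 110 and 476 bases from that of EHMT1, rose with it, by 0.17 on the log2 scale (SE 0.070, edgeR adjusted p 0.0379), a call that 6 of 15 alternatives did not keep. SUV39H2-DT, 207 bases from the start of SUV39H2, stood at -0.46 in log2 (SE 0.25) and did not pass (edgeR adjusted p 0.107), though without control replicate 1 it did (-0.67, adjusted p 0.02).

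Each gene was set beside the other genes of its chromosome. The 854 tested genes of chromosome 12 had a median log2 fold change of 0.37, and the 20 tested genes nearest to CBX5 a median of 0.41. Of these 20, 12 were higher and 0 lower, against 32.8% and 30% of all genes tested. The value of 0.45 for CBX5 exceeded that of 57.4% of the other genes of chromosome 12, and the lower end of its interval, 0.37, is at the chromosome's median. The part of this chromosome-wide shift in the rise of CBX5 was not tested. CBX3 fell on a chromosome with a median of 0.056, among 20 neighbours with a median of 0.35, and only 12% of the other tested genes of chromosome 7 had a lower value. The medians of chromosomes X, 10, 9, 6, 13 and 17 were between -0.094 and 0.038. The 20 genes nearest to SUV39H1, EHMT2 and CBX1 had medians of 0.19, 0.21 and 0.23, so these 3 genes fell among neighbours whose medians were above 0. EHMT1 is the last tested gene of chromosome 9, and the 10 genes before it had a median of 0.46, or 0.28 without control replicate 1.

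The 7 genes that passed have 13 direct neighbours among the tested genes. Of these, 4 passed in the same direction as their gene (DCLRE1C, ARRDC1-AS1, HNRNPA2B1 and SMUG1), 3 in the opposite direction (WDR13, NEU1 and NFE2L1) and 6 did not pass. Among all genes tested, 62.8% passed. WDR13 beside SUV39H1 rose (log2 fold change 0.67), as did NEU1 beside EHMT2 (0.89), NFE2L1 beside CBX1 (0.39) and SMUG1 beside CBX5 (0.41), each with an edgeR adjusted p of at most 8.03e-07. The 6 that did not pass were SUV39H2-DT, given above, HDAC6, NELFE, SNX11, SNX10 and SCAT2. NELFE did pass with upper quartile scaling. CAB39L, beside SETDB2 and so outside these 13, did not pass either. SCAT2 overlaps CBX5 in RefSeq and had 19 to 51 counts per library, against 6651 to 24793 for CBX5.

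Most of the cell division genes listed were lower in KO. Of 35 proliferation genes, 31 were lower and 2 higher in KO (against 30% and 32.8% of all genes), with a median log2 fold change of -0.52. Their summed level was 5963 to 6135 CPM in control and 4185 to 4256 CPM in KO. BUB1, CENPA and MCM6, which act at kinetochores, centromeres and replication origins, fell most, by 1.21, 1.12 and 1.06 on the log2 scale (edgeR adjusted p 1.34e-18, 4.87e-16 and 3.48e-17). All 3 lie on chromosome 2, whose median log2 fold change is not given here. The part of cell division in the fall of CBX3, SUV39H1, SUV39H2, EHMT2 and CBX1 was not tested. CBX5 and EHMT1 rose beside it.

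All 4 genes listed as keeping H3K9 and DNA methylation through replication fell, where 30% of all genes tested did. HELLS, a chromatin remodeller, went from 152 ± 1.81 to 106 ± 5.87 CPM (log2 fold change -0.53, SE 0.045), UHRF2 from 73.9 ± 1.40 to 55.9 ± 0.75 CPM (-0.40, SE 0.047) and UHRF1, which reads H3K9 methylation and hemimethylated DNA, from 52.5 ± 5.69 to 44.4 ± 3.65 CPM (-0.24, SE 0.077). Their edgeR adjusted p were 5.75e-11, 1.96e-08 and 0.0151. The call of UHRF1 was lost under library size only and without control replicate 2 or 3 or KO replicate 1 or 3, with adjusted p up to 0.0743. DNMT1 was the fourth, and the median was -0.32, against 0.004 over all genes.

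Of 15 proteins that bind HP1, 7 fell and 2 rose, against 30% and 32.8% of all genes tested (median log2 fold change -0.086, against 0.004). SGO1, which guards cohesin at centromeres, fell from 25.1 ± 1.49 to 16.5 ± 0.84 CPM, and SMCHD1, a protein of the inactive X chromosome, from 107 ± 4.19 to 79.0 ± 6.37 CPM. LRIF1, which links HP1 to SMCHD1, rose from 26.8 ± 2.04 to 36.3 ± 1.68 CPM. Their edgeR adjusted p were 1.09e-08, 3.76e-08 and 6.38e-07. Under upper quartile scaling and DESeq2 only 1 of the 15 was higher, as without control replicate 3 and without KO replicate 2 or 3.

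Among 8 partners of EHMT1 and EHMT2 or of the E2F6 complex that holds CBX3, 2 rose, 2 fell and 4 did not pass (median 0.059, against 0.004 over all genes). With 32.8% of all genes higher and 30% lower, these counts are near the background. CDYL2, a chromodomain protein, rose from 0.31 ± 0.071 to 2.09 ± 0.29 CPM, and WIZ, the zinc finger protein that stabilises the EHMT heterodimer, from 23.4 ± 2.85 to 30.6 ± 2.07 CPM. E2F6, the repressor that names its complex, fell from 36.1 ± 1.35 to 26.1 ± 1.69 CPM. The edgeR adjusted p were 7.17e-10 for CDYL2, 0.000108 for WIZ and 1.02e-07 for E2F6.

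Of 7 cofactors of SETDB1, KAP1 and HUSH genes, 5 rose and 0 fell, beside 32.8% and 30% of all genes (median 0.27, against 0.004), though without control replicate 1, 1 of them was lower. ATF7IP, which stabilises SETDB1 and carries it to the nucleus, rose from 65.2 ± 3.28 to 302 ± 12.7 CPM (log2 fold change 2.21, SE 0.048, edgeR adjusted p 1.96e-24). ATF7IP2 rose from 9.95 ± 0.59 to 15.3 ± 1.17 CPM and PPHLN1, a subunit of the HUSH complex, from 63.0 ± 2.71 to 77.1 ± 1.36 CPM. ATF7IP and PPHLN1 lie on chromosome 12, whose median is given above. The other 2 genes, TRIM28 (KAP1) and MPHOSPH8, did not pass.

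**Figure D4:**
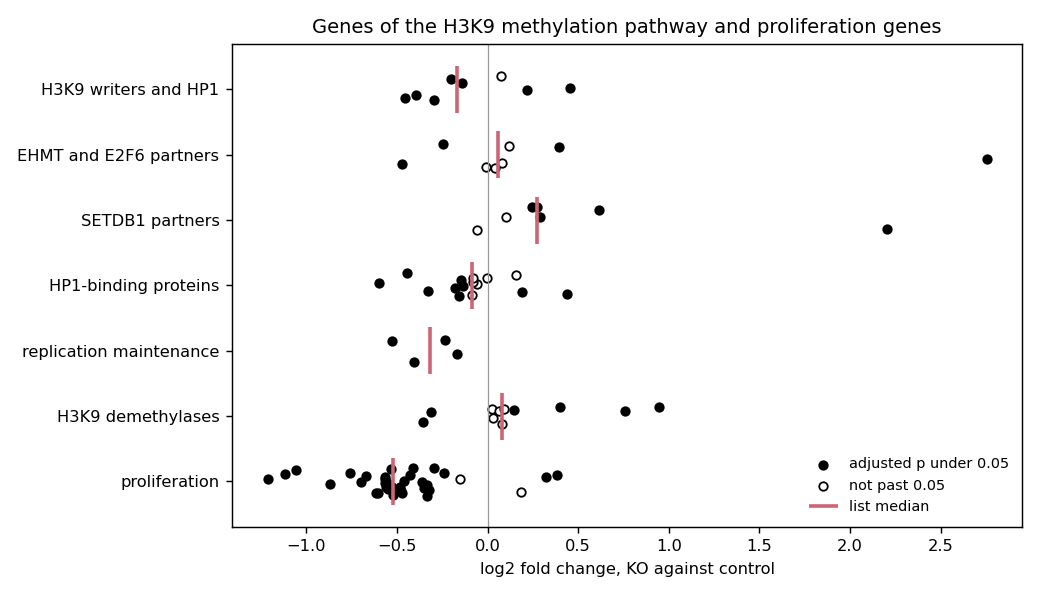
Log2 fold change of each tested gene of the pathway lists and of the proliferation list. Filled points passed an adjusted p of 0.05, open points did not, and lines are list medians. The PRDM and Polycomb CBX genes are not drawn. Changes of over 2-fold upward are those of CDYL2 and ATF7IP, at 2.75 and 2.21.

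Of 11 H3K9 demethylases, 4 rose and 2 fell, where 32.8% and 30% of all genes did (median 0.081, against 0.004), so the count shows nothing particular to them. KDM4B, which removes H3K9me3 and H3K9me2, rose from 10.2 ± 0.77 to 19.6 ± 1.33 CPM (log2 fold change 0.95, SE 0.079, edgeR adjusted p 3.16e-11). KDM4D rose by a log2 fold change of 0.76 (SE 0.22) and KDM7A from 7.34 ± 1.00 to 9.68 ± 0.70 CPM (edgeR adjusted p 0.00434 and 0.00118). The CBX proteins of Polycomb, which share the chromodomain with HP1 and prefer H3K27me3, are described by CBX2 and CBX6. CBX2 fell from 51.2 ± 3.86 to 31.8 ± 0.36 CPM. CBX6 was at 104.0 ± 8.67 and 93.3 ± 5.24 CPM, and its fall passed (edgeR adjusted p 0.0211) but was lost under library size only, with no filter, and without control replicate 2 or 3 or KO replicate 1 or 3.

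Among PRDM proteins linked to H3K9 methylation, MECOM (PRDM3, EVI1), a transcription factor with a PR domain, went from 1 count over the 3 control libraries to 1283 over the 3 KO libraries. The ratio, scaled for library size, was 959.5, with a 95% exact binomial interval of 172 to 37930 that covers counting error only. It was at 13.7 ± 0.43 CPM (SD, n = 3) in KO. PRDM2 (RIZ1) did not pass (0.11, edgeR adjusted p 0.193), and PRDM16 did not pass the filter.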

How the data were processed

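The authors deposited whole-number counts per gene. Libraries were made with a stranded kit for total RNA, per the labels' protocols. The submitters' processing notes name STAR 2.6.1c, edgeR 3.30.0 and hg19; which counter was used, and with what strand option, is not given in the sources used here. Of 62486 gene IDs, 58642 (93.8%) matched the name table. With edgeR 4.0.16 (R 4.3.3), genes were filtered by filterByExpr and scaled by TMM, and KO was tested against control by the robust quasi-likelihood test, Benjamini-Hochberg adjusted over all genes tested (threshold 0.05). Ratios were compared by exact permutation over libraries. For names, order and overlaps of neighbours RefSeq (GRCh38.p14) was used. Every pair of replicates differed beyond sampling noise (chi-square per gene at least 1.65). The procedure was tested on simulated counts of 17351 genes, 200 of them changed. It recovered 56% of changes of 1.25-fold and 75% of changes of 1.5-fold. Of its calls there, 7.14% were false. In the data themselves 62.8% of tested genes were called, a far larger share than was changed in the simulation, so these rates need not carry over. Alternatives were other scalings and filters, DESeq2 1.42.0, voom (limma 3.58.1), a replicate block and each library left out. The members and lists were chosen with earlier results of these data known. Named were all 8 genes, their direct neighbours, up to 3 genes per list with the largest change past the threshold, and the 2 genes most alike each changed gene. Lengths of the deposited H3K9me3 peaks were summed; other peak and Hi-C files were not used here. 1 gene of the Polycomb CBX list is not reported here.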

Additional observations from a re-analysis of the deposited data

How the results depend on the processing

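Of 120 values of the 8 genes under alternatives, 111 kept their direction and their side of the threshold, and 9 kept the direction but no longer passed it. EHMT2 no longer passed with library size only (-0.17) and with no filter (-0.16), and its values with 1 library left out ran from -0.30 to -0.14. CBX1 no longer passed with no filter (-0.10), and left-out values ran from -0.17 to -0.10. SUV39H1 (-0.33 to -0.24), SUV39H2 (-0.43 to -0.35), EHMT1 (0.18 to 0.26), CBX3 (-0.49 to -0.41) and CBX5 (0.42 to 0.49) passed under all 15. All 48 differences in mean log2 ratio, KO minus control, kept their direction. That of SUV39H1 to SUV39H2 ran from 0.019 to 0.19. With raw counts or a replicate block it was 0.088, as in the main setting, since these settings can hardly alter such a difference. Genes changed at least 2-fold numbered 4020 with no filter, among more genes tested, against 2613. Among direct neighbours that did not pass, CAB39L turned to 0.052 without control replicate 1 (left-out range -0.209 to 0.052), SNX10 to 0.076 without control replicate 3, and SNX11 to -0.025 with upper quartile scaling, -0.0024 with the CPM filter, -0.0094 without control replicate 1 and -0.062 without KO replicate 3 (left-out range -0.062 to 0.0567). The median of all genes was -0.031 with upper quartile scaling and 0.034 with library size only. The length of H3K9me3 peaks had a log2 ratio of 0.858, of 0.80 on autosomes and of 1.03 over peaks at or above each list's median width. What caused these shifts was not tested. The labels give both genotypes replicate numbers 1 to 3. Same-numbered deviations correlated by only 0.111, 0.064 and 0.047, but each KO library correlated best with the control of its own number. Whether same-numbered libraries share a culture or batch was not tested. With a replicate block 11655 genes were called, against 11157 without it, and EHMT2 had -0.22 and CBX1 -0.14 in it; it changed no call of the 8 genes. Depth limits SETDB2 most, with 182 counts in its shallowest library.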

Other observations

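For each of the 7 genes that passed the test, the most alike pattern over the 6 libraries was sought among 10901 genes with a symbol and a mean of at least 5 CPM, as the smallest root mean square difference of centred log2 CPM. For CBX5 these were RAB31 (0.0114) and ARMT1 (0.0135), and for CBX3 SMC2 (0.0133) and SLC30A6 (0.0142). SUV39H1 was closest to SESN1 (0.0186) and RPS21 (0.0253), and SUV39H2 to MRPL32 (0.0172) and CENPU (0.0202). EHMT1 was closest to ITPK1 (0.0167) and AKT1 (0.0203), CBX1 to ACAA2 (0.0144) and CAMK1D (0.0165). EHMT2, whose libraries spread most, had no gene closer than AKNA (0.0373) and KRI1 (0.0378). With 6 libraries in 2 genotypes, likeness is mostly that of the genotype difference and the measure is a description.

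Processed pseudogenes could take reads of the HP1 genes. The table holds 10 CBX3 pseudogenes with 423 counts in all, or 1.1% of the 38585 counts of CBX3, 5 of CBX1 with 32 counts (0.178%) and 1 of CBX5 with 48 counts (0.0652%). No pseudogene named after the other 5 genes is in the table. How the counting treated reads that match more than 1 place is not given in the sources used here.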
